A study of Mus musculus with 16 samples.

Results

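The proteasome genes of the mouse kidney were followed after cisplatin, with and without preconditioning. Genes were taken by symbol: Psm, then a letter from a to g, then a digit. Of 54 such symbols 4 were pseudogenes and 2 did not reach the limit of 1 TPM in at least 4 of 16 libraries, which left 48 of the 46078 genes listed. The unit, TPM, divides the reads of each gene by its length and rescales the library so that all genes add up to 1000000. The members were 7 alpha, 4 structural beta and 3 catalytic beta subunits of the constitutive 20S core, 3 immunoproteasome subunits, 6 ATPases, 3 other base subunits and 8 lid subunits of the 19S particle. With them came 5 activator genes, 1 inhibitor, 4 chaperones of 20S assembly and 3 of 19S assembly. Psmc3ip met the name rule but encodes a meiotic recombination factor and no part of the proteasome, so it is counted among the 48 and not described further. Under the limit were Psma8, a testis subunit with at most 0.305 TPM, and Psmb11, the thymus subunit, with at most 0.0406 TPM. Just inside it were Psmb9, at 1 TPM or more in 7 libraries, and Psmc3ip, in 15. The other 46 members were above it in all 16 libraries.

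Kidneys came from C57BL/6 mice aged 20 weeks, 72 h after an intraperitoneal injection, with 4 libraries in each of 4 groups. Mice without preconditioning received 0.9% sodium chloride (BL_vehicle) or cisplatin (BL_cisplatin), a platinum drug that injures the kidney tubule. Mice on calorie restriction for 4 weeks (CR_cisplatin) and mice exposed to hypoxia for 2, 4 and 8 h on 3 days (HP_cisplatin) also received cisplatin. No preconditioned group received the vehicle. RNA was total RNA of the organ with ribosomal RNA removed, so fewer cells of a type and less RNA per cell cannot be told apart. The labels do not state that each library is 1 mouse, so p-values measure the spread between libraries, which may in part be technical.

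The 26S proteasome degrades proteins tagged with ubiquitin. Its 20S core is a barrel of alpha and beta rings with the catalytic sites inside, and the 19S particle at its ends binds ubiquitin, removes it, unfolds the substrate and feeds it into the barrel. In cells exposed to interferon gamma 3 immunoproteasome subunits take the place of the constitutive catalytic ones and the peptides made change. When proteasome activity falls short, the transcription factor NRF1 (gene Nfe2l1) is known to raise most subunit genes together.

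Reads recovered from the TPM came to at least 49180903 to 62604521 per library. Members rested on 54 reads (Psme2b, lowest library) to 12977 reads (Psme4, highest library). Library titles carry 2 prefixes: the first holds BL_cisplatin 1 to 4 and CR_cisplatin 1, the second all other libraries. Prefix and group therefore cannot be told apart for BL_cisplatin against vehicle or HP_cisplatin. In the members HP_cisplatin 4 stood apart from HP_cisplatin 1 to 3, and BL_cisplatin 4 was the highest of its group in the immunoproteasome genes and in the activators Psme1, Psme2 and Psme2b. Several results that rest on these libraries are given with and without them. All 8 proximal tubule markers checked were measured at 167.6 to 273.2 summed TPM in BL_cisplatin and 3093 to 3806 in vehicle, 2995 to 3585 in CR_cisplatin and 309.7 to 3038 in HP_cisplatin, so the tissue label was met and its epithelial transcripts moved with the groups. Their part in the proteasome results was not tested.

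After cisplatin without preconditioning, 19 of the 31 constitutive 26S subunits were higher, with fitted folds from 1.112 (Psmc6) to 2.335 (Psmd11), and 2 were lower. The assembly chaperone Psmd10, with a fitted fold of 2.492, had the largest rise of all members. Of the 48 members 26 (54.2%) were higher than in vehicle, where 38.0% of all 15014 genes tested were. Only 3 members (6.2%) were lower, where 28.8% of all genes tested were. The median log2 fold change, a difference of log2(TPM + 1), was 0.224 for the members and 0.0845 for all genes tested. The vehicle and BL_cisplatin libraries did not overlap in 31 of the 48 members (64.6%) and in 63.5% of all genes tested, so the share was that of all genes. Among called genes they did not overlap in all 29 members and in 91.0% of all genes called. The members that fell were the alpha subunit Psma4, the lid subunit Psmd6 and the assembly chaperone Psmg1. With the title prefix as a term in the fit, which only CR_cisplatin 1 against CR_cisplatin 2 to 4 can inform, limma called 6 members higher (Psmd10, Psmd11, Psmd2, Psmd7, Psme3 and Psmg4) and 0 lower, 13 and 0 at an unadjusted p under 0.05. The 6 are 12.5% of the members, where 12.8% of all genes were higher and 9.88% lower in that fit, so with the prefix term the share of higher members was that of all genes. After rescaling without transcripts of mitochondria and red blood cells and the 10 most abundant genes, here called the rescaled values, the median of all genes moved from 0.0845 to 0.241 and that of the members to 0.396, with 37 members higher and 2 lower beside 48.2% and 23.5% of all genes.

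**Figure D1:**
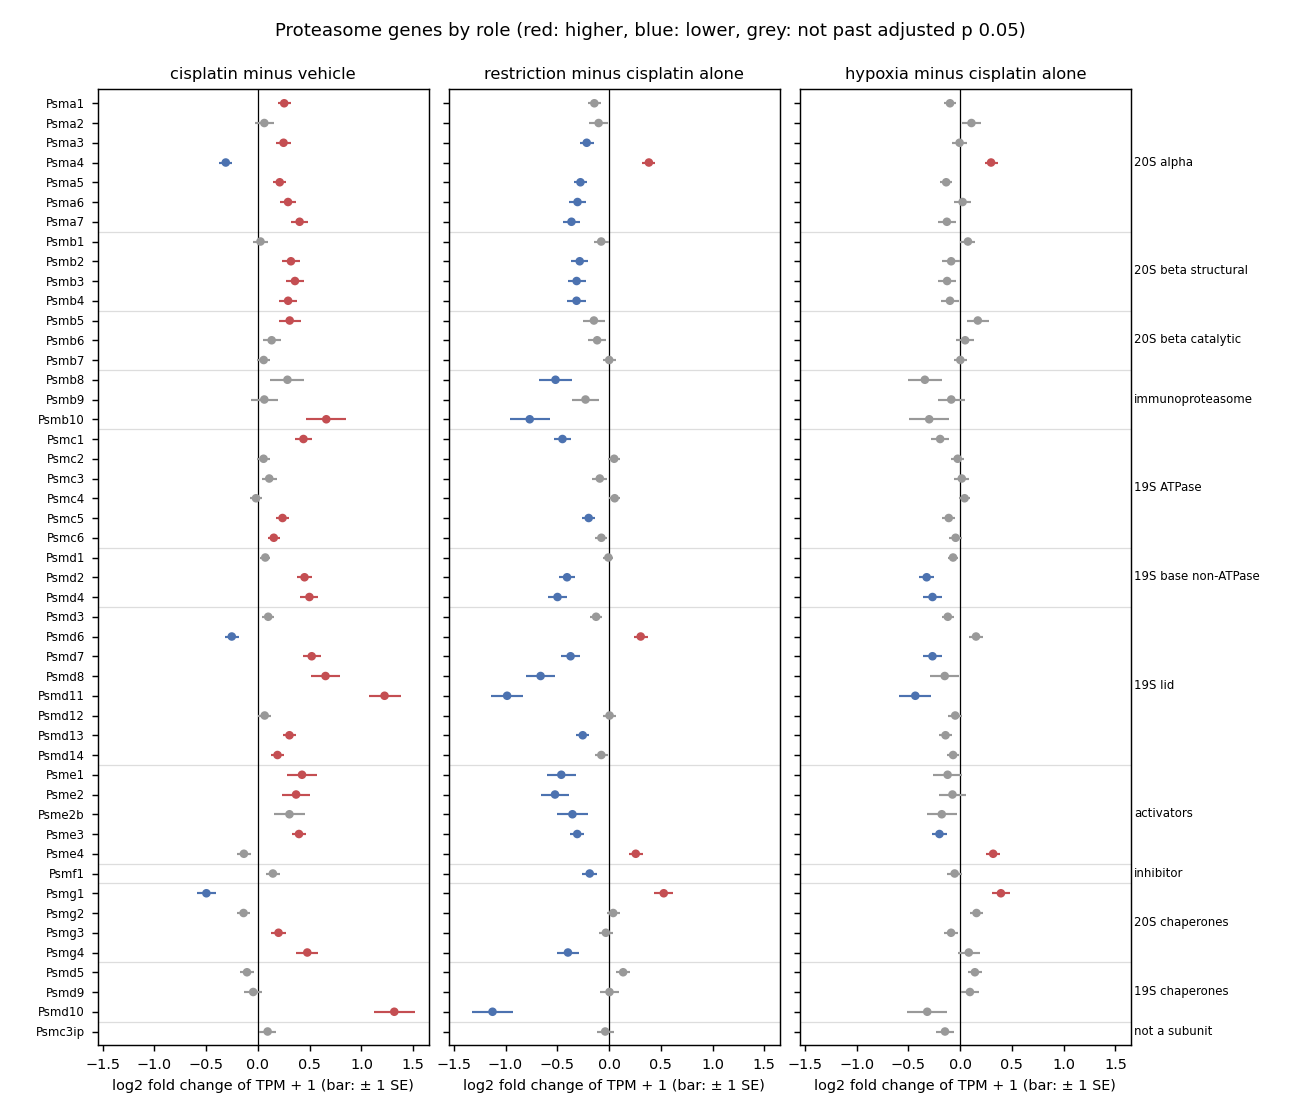
Log2 fold change of TPM + 1 (x axis, bar ± 1 SE) of each of the 48 members (y axis, by role) for 3 comparisons: cisplatin against vehicle, and each preconditioning against cisplatin alone. In the left panel 26 genes are red (higher) and 3 blue (lower), with Psmd10 and Psmd11 farthest to the right. The middle panel has 24 blue and 4 red, and the right panel 5 blue and 3 red.

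The strongest response was that of Psmd10, also called gankyrin, an assembly chaperone of the 19S base that also binds cell cycle regulators. It measured 7.08, 7.65, 6.77 and 6.10 TPM in vehicle 1 to 4 and 19.5, 16.8, 18.2 and 20.4 TPM in BL_cisplatin 1 to 4. After calorie restriction it measured 7.91, 8.17, 7.67 and 8.25 TPM, and after hypoxia 22.6, 12.2, 18.9 and 8.90 TPM. Every BL_cisplatin library was above every vehicle library, the restricted libraries lay just above vehicle, and the hypoxia libraries ran from near vehicle to above BL_cisplatin. The means were 18.7 ± 1.56 TPM after cisplatin and 6.90 ± 0.644 TPM in vehicle (SD, n = 4), a log2 fold change of 1.32 ± 0.20 SE, adjusted p = 8.05e-05.

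Psmd11, a lid subunit that clamps the lid to the base and the 20S core, followed the same pattern. It measured 8.83, 7.77, 7.90 and 7.72 TPM in vehicle and 19.98, 19.1, 19.95 and 21.5 TPM in BL_cisplatin, with no overlap. Restricted mice had 9.34, 9.94, 9.30 and 10.1 TPM and hypoxia mice 21.7, 12.1, 16.7 and 10.3 TPM. The difference between BL_cisplatin and vehicle was a log2 fold change of 1.22 ± 0.15 SE, adjusted p = 4.67e-05. Both genes passed in this comparison under all alternatives run, the prefix term included (Psmd10 adjusted p = 0.038, Psmd11 adjusted p = 0.035).

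Promoter sequence is shown for these 2 genes because they rose most, and for Psma4 and Psmg1 because they fell in classes where other members rose. The RefSeq promoter table (GRCm38.p6) held a window for 41 of the 48 members. Each line gives the bases upstream of the start, read 5′ to 3′ on the gene's strand, without bases that GENCODE M21 counts as transcribed. Capitals mark matches, on either strand, to CCAAT (the CCAAT box, bound by NF-Y), TGANNNNGC (the core of the antioxidant response element, bound by NRF1 and NRF2), GAAANNGAA (the core of the interferon-stimulated response element) or TTCNNNGAA (the GAS element of interferon gamma targets).
Psmd11, chr11:80428365-80428614, plus strand: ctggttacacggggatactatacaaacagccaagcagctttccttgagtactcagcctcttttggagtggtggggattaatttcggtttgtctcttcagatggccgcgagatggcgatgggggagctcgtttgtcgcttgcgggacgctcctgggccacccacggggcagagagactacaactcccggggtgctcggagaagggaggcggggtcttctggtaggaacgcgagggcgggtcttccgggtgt
Psmd10, chrX:140956729-140956961, minus strand: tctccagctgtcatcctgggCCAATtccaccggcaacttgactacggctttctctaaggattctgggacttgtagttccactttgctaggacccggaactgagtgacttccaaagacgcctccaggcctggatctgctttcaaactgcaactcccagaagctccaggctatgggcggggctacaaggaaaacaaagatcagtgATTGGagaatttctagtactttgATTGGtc
Psma4, chr9:54950609-54950789, plus strand: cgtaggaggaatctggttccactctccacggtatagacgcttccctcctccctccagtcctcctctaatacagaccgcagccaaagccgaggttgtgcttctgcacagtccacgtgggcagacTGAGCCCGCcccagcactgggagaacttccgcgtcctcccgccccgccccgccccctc
Psmg1, chr16:95990961-95991210, minus strand: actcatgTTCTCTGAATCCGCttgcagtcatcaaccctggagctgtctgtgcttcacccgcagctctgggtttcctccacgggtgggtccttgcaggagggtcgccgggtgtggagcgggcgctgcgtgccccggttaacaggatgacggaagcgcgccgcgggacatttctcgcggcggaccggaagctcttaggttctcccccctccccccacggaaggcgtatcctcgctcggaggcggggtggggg
In these windows Psmd10 had 3 CCAAT boxes, at 230, 47 and 24 bases before the RefSeq start, and Psma4 had 1 antioxidant response core, at 127 bases. The lines of Psmd10 (233 bases) and Psma4 (181 bases) stop at the GENCODE start, upstream of the RefSeq start. Their motifs therefore lie closer to the end of the line than these distances. Psmg1 had an antioxidant response core at 238 and a GAS match at 243 bases, which overlap each other, and Psmd11 had none of the 4 motifs. Over the 250 bases before the start a CCAAT box was present in 14 of 41 members (34.1%) and in 34.5% of 27025 genes. The antioxidant response core was in 14 members (34.1%) and 35.1% of genes, the interferon-stimulated core in 3 members (7.3%) and 7.2% of genes, and GAS in 2 members (4.9%) and 7.2% of genes. CCAAT boxes lay in 5 of the 7 alpha subunit windows, those of Psma1, Psma2, Psma3, Psma6 and Psma7. They lay in 1 of 2 structural beta, 0 of 2 constitutive catalytic and 1 of 3 immunoproteasome windows. In the 19S particle they lay in 2 of 5 ATPase, 1 of 3 other base and 1 of 6 lid windows. Activators had 1 of 5, 20S chaperones 0 of 3 and 19S chaperones 1 of 3. Differences between classes were not tested. The motifs are letter matches and no measured binding.

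The alpha ring of the 20S core, which gates entry to the barrel, had 5 of 7 subunits higher after cisplatin and 1 lower. Of all genes tested 38.0% were higher and 28.8% lower. The classes are small, and their counts were not tested against these shares. Psma7 had the largest rise of the ring. Vehicle libraries measured 21.2, 22.6, 22.2 and 22.9 TPM of Psma7 and BL_cisplatin libraries 29.9, 30.2, 30.6 and 28.1 TPM. CR_cisplatin libraries measured 22.97, 23.8, 22.4 and 22.4 TPM and HP_cisplatin libraries 31.1, 27.02, 29.2 and 21.8 TPM. Cisplatin gave a log2 fold change of 0.40 ± 0.085 SE, adjusted p = 0.000858, and the restricted libraries overlapped with vehicle. Psma1, Psma3, Psma5 and Psma6 rose by log2 fold changes of 0.25, 0.25, 0.21 and 0.29, and Psma2, which shares 8943 bases with the same-strand gene AW209491, was at 0.062 (adjusted p = 0.565).

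Psma4 went the other way. It measured 34.9, 39.4, 37.8 and 37.9 TPM in vehicle against 29.97, 29.8, 31.7 and 28.6 TPM in BL_cisplatin, every library of which was below every vehicle library. CR_cisplatin libraries had 38.6, 38.8, 42.9 and 37.8 TPM and HP_cisplatin libraries 35.3, 38.4, 36.3 and 38.6 TPM, none as low as any BL_cisplatin library. The fall after cisplatin was a log2 fold change of -0.31 ± 0.063 SE, adjusted p = 0.000609, and with the prefix term the value was -0.269 (adjusted p = 0.118). Psma4 shares 209 bases with a gene on the opposite strand.

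Of the 4 structural beta subunits 3 rose, where 38.0% of all genes were higher, and Psmb1 did not pass. Psmb3 measured 24.9, 25.8, 25.8 and 26.3 TPM in vehicle and 32.8, 33.9, 35.9 and 30.5 TPM in BL_cisplatin. With restriction it measured 25.2, 27.2, 27.4 and 26.3 TPM and with hypoxia 36.4, 28.3, 31.7 and 25.9 TPM. The rise after cisplatin was a log2 fold change of 0.36 ± 0.087 SE, adjusted p = 0.00236, beside log2 fold changes of 0.32 for Psmb2 and 0.29 for Psmb4. Psmb1, the most abundant member in vehicle, had 74.3, 72.3, 77.6 and 79.1 TPM there and 82.96, 73.7, 78.8 and 73.4 TPM in BL_cisplatin. Its preconditioned libraries had 73.8, 73.97, 72.4 and 72.1 TPM after restriction and 83.3, 82.7, 87.6 and 72.1 TPM after hypoxia, and the vehicle and BL_cisplatin ranges overlapped (log2 fold change of 0.024 ± 0.072 SE, adjusted p = 0.775).

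The 3 catalytic subunits differed among themselves, and of these only Psmb5, which carries the chymotrypsin-like site, passed. Of all genes 38.0% were higher, so 1 of 3 was close to that share. Psmb5 measured 71.1, 74.7, 71.7 and 70.3 TPM in vehicle and 93.7, 89.3, 87.5 and 86.5 TPM in BL_cisplatin. Restricted libraries had 78.4, 79.8, 82.9 and 80.9 TPM, between the groups, and hypoxia libraries 119, 101.4, 110.2 and 76.6 TPM, 3 of them above every BL_cisplatin library. The rise after cisplatin was a log2 fold change of 0.31 ± 0.11 SE, adjusted p = 0.0184. Psmb6, with the caspase-like site, measured 44.6, 47.1, 45.9 and 46.3 TPM in vehicle and 51.1, 51.3, 52.3 and 47.2 TPM in BL_cisplatin. It measured 44.5, 48.7, 48.3 and 44.7 TPM after restriction and 58.1, 55.4, 54.4 and 42.4 TPM after hypoxia. The vehicle and BL_cisplatin libraries of Psmb6 did not overlap, but the difference did not pass (log2 fold change of 0.13 ± 0.086 SE, adjusted p = 0.186). Psmb7, with the trypsin-like site, had 65.5, 64.4, 69.8 and 66.2 TPM in vehicle and 69.1, 70.01, 71.4 and 65.9 TPM in BL_cisplatin. Its values were 67.9, 68.6, 70.8 and 69.4 TPM after restriction and 71.5, 63.5, 74.1 and 68.04 TPM after hypoxia, all 4 ranges overlapping (log2 fold change of 0.056 ± 0.063 SE, adjusted p = 0.450). Psmb7 shares 6571 bases with Nek6 on the opposite strand, and since no strand is stated for the counting its reads are less certain.

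Within the 19S base, 3 of the 6 ATPases that unfold substrates were higher, where 38.0% of all genes were. Psmc1 measured 46.8, 46.2, 47.6 and 46.4 TPM in vehicle and 64.99, 63.5, 68.03 and 58.8 TPM in BL_cisplatin. After restriction it was at 44.99, 48.4, 46.1 and 46.1 TPM and after hypoxia at 64.8, 54.4, 58.4 and 46.4 TPM. The cisplatin rise was a log2 fold change of 0.44 ± 0.086 SE, adjusted p = 0.000491, with 3 restricted libraries below the vehicle range and 1 above it. Psmc5 (0.24) and Psmc6 (0.15) also rose, although Psmc6 lost its call without BL_vehicle 1, 2 or 3 or BL_cisplatin 1 or 3 (adjusted p = 0.057 to 0.0847), and with the prefix term it was at 0.016 (adjusted p = 0.924). Psmc4 did not pass: it had 35.7, 34.03, 36.1 and 37.03 TPM in vehicle and 34.8, 35.1, 37.4 and 33.7 TPM in BL_cisplatin. The preconditioned values were 35.96, 35.7, 38.6 and 36.3 TPM with restriction and 37.6, 36.8, 35.4 and 35.5 TPM with hypoxia, with all groups overlapping (log2 fold change of -0.019 ± 0.056 SE, adjusted p = 0.776). Psmc2 and Psmc3 did not pass either, at 0.054 and 0.11.

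The 3 base subunits without ATPase activity split in the same way. Psmd4, a ubiquitin receptor, measured 27.3, 26.5, 26.7 and 27.8 TPM in vehicle and 39.4, 40.6, 42.3 and 32.9 TPM in BL_cisplatin. It measured 26.9, 27.5, 27.3 and 26.6 TPM after restriction and 35.8, 31.3, 34.2 and 27.01 TPM after hypoxia. Cisplatin and vehicle libraries did not overlap (log2 fold change of 0.50 ± 0.088 SE, adjusted p = 0.000229), and the scaffold Psmd2 rose by a similar log2 fold change of 0.45. Psmd1, the other scaffold, had 12.5, 12.95, 12.8 and 12.7 TPM in vehicle and 13.4, 13.2, 13.0 and 14.2 TPM in BL_cisplatin. It had 13.5, 14.1, 13.3 and 12.6 TPM after restriction and 13.1, 12.6, 12.1 and 13.2 TPM after hypoxia. It did not pass (log2 fold change of 0.071 ± 0.049 SE, adjusted p = 0.215), although every BL_cisplatin library was above every vehicle library. Psmd1 shares 12945 bases with Htr2b on the opposite strand.

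In the lid, which removes ubiquitin, 5 of 8 subunits rose after cisplatin (38.0% of all genes did) and Psmd6 fell. Beside Psmd11 these were Psmd8 (log2 fold change 0.65, 64.5 ± 1.17 TPM in vehicle and 102.3 ± 9.53 TPM in BL_cisplatin, SD, n = 4), Psmd7 (0.52), Psmd13 (0.30) and the deubiquitinase Psmd14 (0.19). Psmd3 (0.099) and Psmd12 (0.065) did not pass. Psmd6 measured 24.5, 24.2, 24.4 and 25.6 TPM in vehicle and 21.4, 19.8, 19.7 and 21.3 TPM in BL_cisplatin. It measured 25.7, 25.2, 25.8 and 25.8 TPM after restriction and 21.2, 22.7, 21.5 and 26.8 TPM after hypoxia, where HP_cisplatin 4 alone lay above the vehicle range. The fall of Psmd6 was a log2 fold change of -0.25 ± 0.068 SE, adjusted p = 0.00442. It did not pass on the rescaled values (-0.11, adjusted p = 0.142), nor with voom on recovered reads (-0.137, adjusted p = 0.0512).

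**Figure D2:**
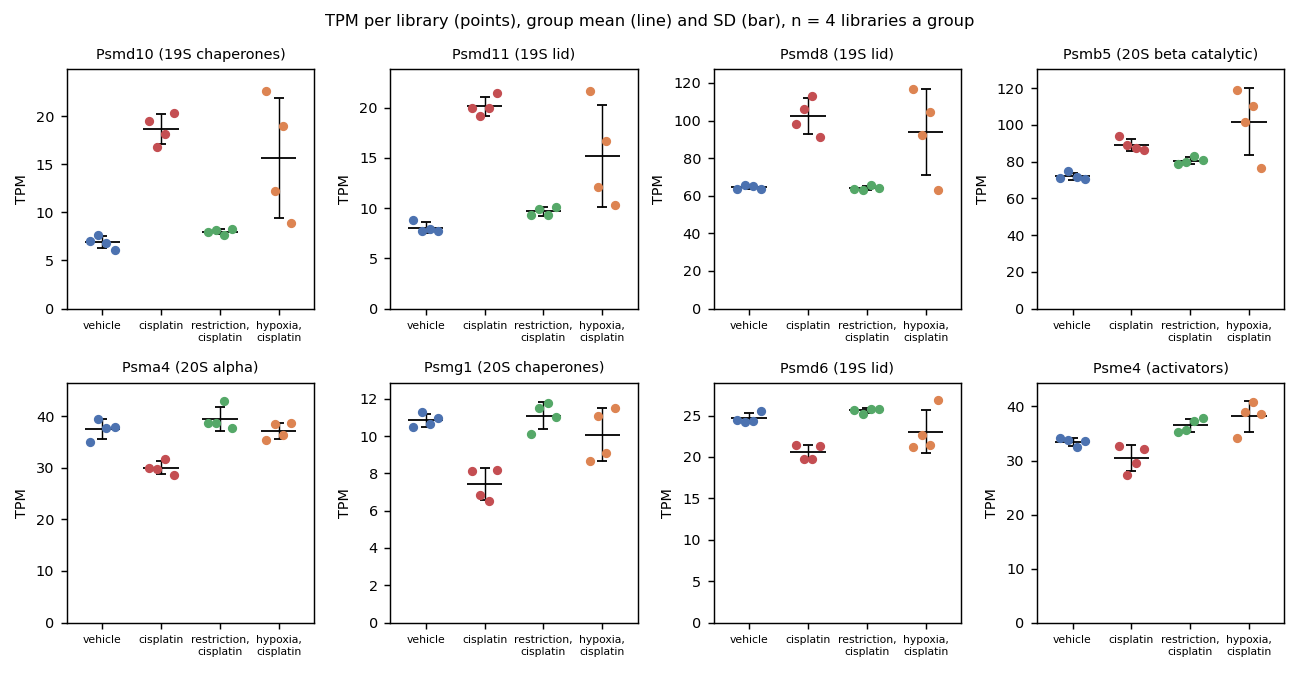
TPM (y axis, linear from 0) of 8 members in each library, 1 point per library, by group, with the group mean as a line and the SD as a bar (n = 4). Psmd10, Psmd11 and Psmd8 are high in BL_cisplatin and near vehicle after restriction, Psmb5 is highest in 3 hypoxia libraries, and Psma4, Psmg1 and Psmd6 are lowest in BL_cisplatin.

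Of the 5 activator genes, whose products cap the 20S core in place of the 19S particle, 3 were higher after cisplatin. Of all genes tested 38.0% were higher. Psme1 and Psme2 form the interferon-inducible cap. Psme1 measured 14.8, 14.8, 17.01 and 13.1 TPM in vehicle and 20.2, 17.7, 19.4 and 24.4 TPM in BL_cisplatin, with BL_cisplatin 4 the highest library. It measured 14.7, 15.8, 14.5 and 13.1 TPM after restriction and 21.04, 19.6, 22.2 and 12.9 TPM after hypoxia. The rise of Psme1 was a log2 fold change of 0.43 ± 0.14 SE, adjusted p = 0.0163, and that of Psme2 a log2 fold change of 0.37 (adjusted p = 0.0237). Without BL_cisplatin 4 neither passed: Psme1 was at 0.34 (adjusted p = 0.0551) and Psme2 at 0.249 (adjusted p = 0.0824). Psme1 also did not pass without BL_vehicle 4 (adjusted p = 0.0505). Psme3, the nuclear activator, rose by 0.40 (adjusted p = 0.000192) and kept its call without that library. Psme2b, a near copy of Psme2 that shares 837 bases with Gm12185 on the same strand, was at 0.30 (adjusted p = 0.0777), and its reads are uncertain.

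Psme4, a large single-chain activator that binds acetylated histones, did not pass in this comparison. It had 34.1, 33.8, 32.4 and 33.6 TPM in vehicle and 32.7, 27.4, 29.6 and 32.1 TPM in BL_cisplatin. After restriction it had 35.2, 35.7, 37.3 and 37.8 TPM and after hypoxia 34.2, 39.04, 40.9 and 38.6 TPM, all 8 above every BL_cisplatin library. The difference between BL_cisplatin and vehicle did not pass (log2 fold change of -0.14 ± 0.070 SE, adjusted p = 0.0981). Psmf1, an inhibitor of the 20S core in the test tube, was low throughout. It measured 3.99, 3.99, 4.52 and 4.05 TPM in vehicle and 4.44, 4.51, 4.90 and 4.86 TPM in BL_cisplatin. The restricted libraries had 3.87, 4.23, 4.25 and 3.61 TPM and the hypoxia libraries 4.33, 4.96, 4.74 and 3.90 TPM, the restricted ones all below BL_cisplatin. Cisplatin against vehicle did not pass (log2 fold change of 0.14 ± 0.071 SE, adjusted p = 0.0853), and restriction against cisplatin did (log2 fold change of -0.19 ± 0.071 SE, adjusted p = 0.0303), though not without BL_cisplatin 3 or 4 or CR_cisplatin 1 or 4 (adjusted p = 0.0628 to 0.0969).

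Among the assembly chaperones the members moved apart. Psmg1 and Psmg2 form 1 dimer that assembles the alpha ring, and Psmg3 and Psmg4 form another. Psmg1 measured 10.5, 11.3, 10.7 and 10.97 TPM in vehicle and 8.12, 6.82, 6.54 and 8.18 TPM in BL_cisplatin. With restriction it measured 10.1, 11.5, 11.8 and 11.03 TPM and with hypoxia 8.66, 11.1, 9.07 and 11.5 TPM, so every preconditioned library was above every BL_cisplatin library. The fall after cisplatin was a log2 fold change of -0.50 ± 0.091 SE, adjusted p = 0.000284, and its partner Psmg2 was at -0.14 (adjusted p = 0.0687). Psmg4 rose: it measured 10.3, 10.7, 9.48 and 8.97 TPM in vehicle and 14.2, 13.9, 13.4 and 14.97 TPM in BL_cisplatin. It measured 9.12, 10.98, 10.6 and 11.3 TPM after restriction and 16.5, 17.9, 14.6 and 11.6 TPM after hypoxia, 2 of which were above every BL_cisplatin library. The rise was a log2 fold change of 0.48 ± 0.11 SE, adjusted p = 0.00125, and Psmg3, which shares 2816 bases with the same-strand gene Gm26938, rose by 0.20 (adjusted p = 0.0186), but not without BL_vehicle 4 (adjusted p = 0.0658). Of the 19S chaperones only Psmd10 passed, 1 of 3, where 38.0% of all genes were higher. Psmd5 had 5.84, 6.23, 6.74 and 6.25 TPM in vehicle and 6.15, 5.24, 5.23 and 6.44 TPM in BL_cisplatin. Its other values were 6.63, 6.52, 6.21 and 6.28 TPM after restriction and 6.85, 5.90, 6.76 and 6.29 TPM after hypoxia, within overlapping ranges (log2 fold change of -0.11 ± 0.069 SE, adjusted p = 0.187). Psmd9 was at -0.046 (adjusted p = 0.658).

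The immunoproteasome genes were low in every group, and in BL_cisplatin 1 library stood above the other 3. Psmb8 measured 2.72, 3.14, 3.59 and 2.31 TPM in vehicle and 3.53, 2.88, 3.19 and 5.99 TPM in BL_cisplatin. It measured 2.39, 2.00, 2.34 and 2.62 TPM after restriction and 2.43, 3.02, 3.43 and 2.28 TPM after hypoxia. BL_cisplatin 4 was the highest of the 16 libraries and the other 3 BL_cisplatin libraries lay inside the vehicle range (log2 fold change of 0.29 ± 0.16 SE, adjusted p = 0.138). Psmb9 had 0.945, 1.10, 1.31 and 0.880 TPM in vehicle and 1.07, 0.782, 1.01 and 1.84 TPM in BL_cisplatin. It had 0.796, 0.801, 0.879 and 0.841 TPM after restriction and 0.790, 1.08, 1.41 and 0.848 TPM after hypoxia, again highest in BL_cisplatin 4 (log2 fold change of 0.061 ± 0.13 SE, adjusted p = 0.694). Psmb10 measured 7.39, 6.51, 8.61 and 6.09 TPM in vehicle and 11.7, 9.41, 9.28 and 18.7 TPM in BL_cisplatin. It measured 7.64, 5.99, 6.82 and 5.77 TPM after restriction and 10.8, 10.2, 10.6 and 6.63 TPM after hypoxia. All 4 BL_cisplatin libraries were above vehicle (log2 fold change of 0.66 ± 0.19 SE, adjusted p = 0.00789), and without BL_cisplatin 4 the mean was 10.1 ± 1.34 TPM (SD, n = 3) and the call remained, at a log2 fold change of 0.452 (adjusted p = 0.021). With the prefix term Psmb10 was at 0.393 and did not pass (adjusted p = 0.434). In the annotation Psmb10 and Psmb8 overlap antisense genes, and Psmb9 shares 212 bases with Tap1 on the opposite strand, so their reads are less certain.

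Each immunoproteasome subunit takes the place of 1 constitutive subunit, so its TPM was set against its partner's in the same library. Psmb8 stood at 3.28 to 5.01% of Psmb5 in vehicle, 3.23 to 6.92% in BL_cisplatin, 2.5 to 3.23% in CR_cisplatin and 2.04 to 3.11% in HP_cisplatin. Psmb9 stood at 1.9 to 2.86% of Psmb6 in vehicle, 1.52 to 3.9% in BL_cisplatin, 1.64 to 1.88% in CR_cisplatin and 1.36 to 2.58% in HP_cisplatin. For Psmb10 over Psmb7 the shares were 9.2 to 12.3%, 13.0 to 28.4%, 8.31 to 11.3% and 9.74 to 16% in the same order. Each highest share was that of BL_cisplatin 4. In an exact permutation test of the log2 ratio, 2-sided over 15 tests, no pair passed: 4 against 4 libraries cannot give a p below 0.0286, and the pairs at that p had an adjusted p of 0.0714. The smallest p was reached for Psmb10 over Psmb7 in cisplatin against vehicle (difference 0.67) and in restriction against cisplatin (-0.85). Without BL_cisplatin 4 the first difference was 0.427. The same p was reached for Psmb8 over Psmb5 in hypoxia against cisplatin (-0.61) and against vehicle (-0.56), and in restriction against vehicle (-0.48). It was also reached for Psmb9 over Psmb6 in restriction against vehicle (-0.35). Mean Psmb5 was 101.8 TPM in HP_cisplatin and 71.95 TPM in vehicle, and mean Psmb8 was 2.79 and 2.94 TPM in the same order. In cisplatin against vehicle the difference for Psmb8 over Psmb5 was 0.054 (adjusted p = 0.914) and turned to -0.188 without BL_cisplatin 4 and to -0.045 without BL_vehicle 4.

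**Figure D3:**
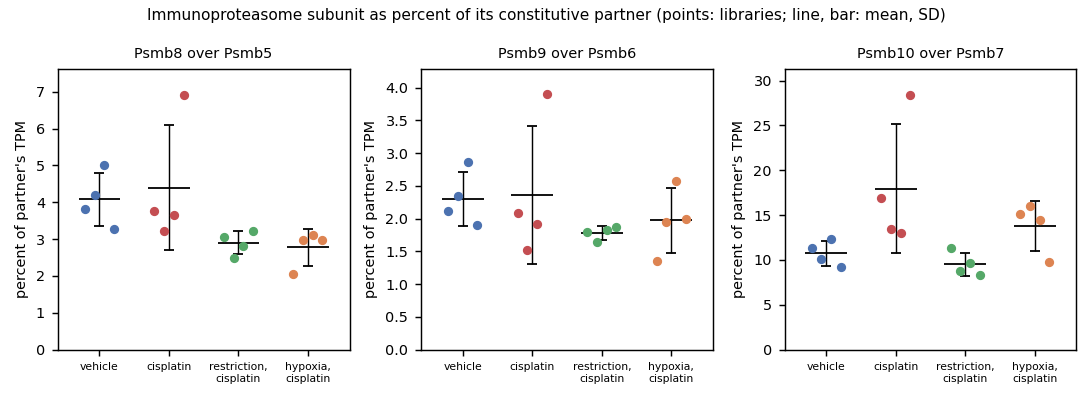
TPM of each immunoproteasome subunit as percent of the constitutive subunit it replaces (y axis, linear from 0) in each library, by group, with mean (line) and SD (bar), n = 4. BL_cisplatin 4 is the highest point in each panel, at 6.92, 3.9 and 28.4%.

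The same library was also the highest for genes around the immunoproteasome. BL_cisplatin 4 had 12.0 TPM of the peptide transporter Tap1 (6.92 to 8.29 in BL_cisplatin 1 to 3) and 12.0 TPM of the interferon factor Irf1 (5.67 to 8.23). Of 17 class I presentation and interferon signalling genes tested 12 were higher after cisplatin and 0 lower, where 38.0% and 28.8% of all genes were. With restriction 0 were higher and 14 lower than with cisplatin alone (29.8% and 37.4% of all genes), and with hypoxia 0 were higher and 4 lower (16.4% and 13.1%). The 4 with the smallest adjusted p were Stat2 (0.87), Irf9 (0.72), Ifngr1 (1.87) and Irf7 (1.78, log2 fold changes against vehicle). Immune cells are rich in immunoproteasome, and of 16 immune markers 4 were high enough to test: Cd68 (4.39) and Itgam (1.06) were higher after cisplatin, Csf1r (-1.45) and Adgre1 lower. The 16 markers summed to 53.7 to 75.1 TPM in BL_cisplatin, 17.1 to 22.7 in vehicle, 16.2 to 20.2 in CR_cisplatin and 18.4 to 53.8 in HP_cisplatin, and BL_cisplatin 4 had the lowest BL_cisplatin sum. Most of the BL_cisplatin sum was Cd68, a lysosomal protein of macrophages. Without Cd68 the summed markers were at 6.98 to 12.3 TPM in BL_cisplatin, 15.4 to 20.6 in vehicle, 14.9 to 18.1 in CR_cisplatin and 6.23 to 16.6 in HP_cisplatin. Here BL_cisplatin 4 had the highest BL_cisplatin sum. The B cell markers differed in direction: Cd79a measured 0.557 to 0.861 TPM in BL_cisplatin and 0.0502 to 0.0987 in vehicle, and Ms4a1 was at 0 in BL_cisplatin and at most 0.0194 TPM in vehicle. The part of immune cells in the immunoproteasome values was not tested.

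With calorie restriction before cisplatin the proteasome genes were near the vehicle level. Against cisplatin alone 24 members (50.0%) were lower, where 37.4% of all genes tested were, and 4 were higher, where 29.8% were. The median log2 fold change was -0.192 for the members and -0.0756 for all genes. The CR_cisplatin and BL_cisplatin libraries did not overlap in 30 members (62.5%) and in 64.8% of all genes tested. Among called genes they did not overlap in all 28 members and in 92.1% of all genes called. This comparison shares the BL_cisplatin libraries with cisplatin against vehicle, so opposite signs in the 2 are not independent. The largest falls were those of Psmd10 (log2 fold change of -1.13 ± 0.20 SE, adjusted p = 0.000219) and Psmd11 (log2 fold change of -0.99 ± 0.15 SE, adjusted p = 0.000114), followed by Psmb10 (-0.77) and Psmd8 (-0.66). The 4 higher members were Psmg1 (log2 fold change of 0.53 ± 0.091 SE, adjusted p = 0.000196), Psma4 (log2 fold change of 0.38 ± 0.063 SE, adjusted p = 0.000144), Psmd6 (0.31) and Psme4 (0.26). Psme4 did not pass on the rescaled values (0.106, adjusted p = 0.108), which moved the median of all genes to -0.236 and that of the members to -0.36, with 3 members higher and 35 lower beside 24.0% and 47.9% of all genes.

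By class, 7 of 14 constitutive 20S subunits were lower with restriction than with cisplatin alone and 1 was higher. Of the 17 subunits of the 19S particle 8 were lower and 1 was higher. Of all genes tested 37.4% were lower and 29.8% higher. None of the 3 constitutive catalytic subunits passed, with log2 fold changes of -0.15 for Psmb5, -0.12 for Psmb6 and 0.0015 for Psmb7. All 5 activators passed, 4 lower and Psme4 higher, but Psme2b did not pass without BL_cisplatin 1, 2 or 4 or CR_cisplatin 1, 3 or 4 (adjusted p = 0.0537 to 0.139). In the immunoproteasome Psmb10 and Psmb8 were lower (-0.52 for Psmb8, adjusted p = 0.0123) and Psmb9 was at -0.23 (adjusted p = 0.140). Without BL_cisplatin 4 the calls of Psmb10 (-0.558, adjusted p = 0.00678), Psmb8 (-0.333, adjusted p = 0.031), Psme1 (-0.376, adjusted p = 0.0365) and Psme2 (-0.403, adjusted p = 0.00976) remained, and Psmb9 was at -0.0915 (adjusted p = 0.472). CR_cisplatin 1, the restricted library with the title prefix of BL_cisplatin, had a mean log2(TPM + 1) of the 31 subunits 0.035 above vehicle. CR_cisplatin 2 to 4 were at 0.067, 0.037 and 0.04, and BL_cisplatin 1 to 4 at 0.254, 0.229, 0.281 and 0.195. With the prefix term 12 members (25.0%) were lower and 3 (6.25%) higher, where 23.6% and 18.6% of all genes were, so the lower share was close to that of all genes.

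Restricted mice given cisplatin were also set against vehicle. Here limma called 0 members higher and 0 lower, where 0.0133% and 0.04% of all genes were called (2 and 6 genes). At an unadjusted p under 0.05 only Psmg3 was higher and 0 members lower, and voom on recovered reads called 0 in either direction. A fit of the 8 libraries alone also called 0 members, beside 49 higher and 31 lower of all genes. At an unadjusted p under 0.05 it had 8 members higher and 2 lower. The groups did not overlap in 10 members (20.8%) and in 9.16% of all genes tested. The mean log2(TPM + 1) of the 31 subunits relative to vehicle was 0.035 to 0.067 in CR_cisplatin and -0.02 to 0.021 in vehicle libraries. This small difference was not tested. The log2 fold changes of the 48 members ran from -0.232 to 0.238 with a median of 0.0352. Psmd11, at the top, measured 9.67 ± 0.413 TPM in CR_cisplatin and 8.05 ± 0.520 in vehicle (SD, n = 4, adjusted p = 1.00).

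**Figure D4:**
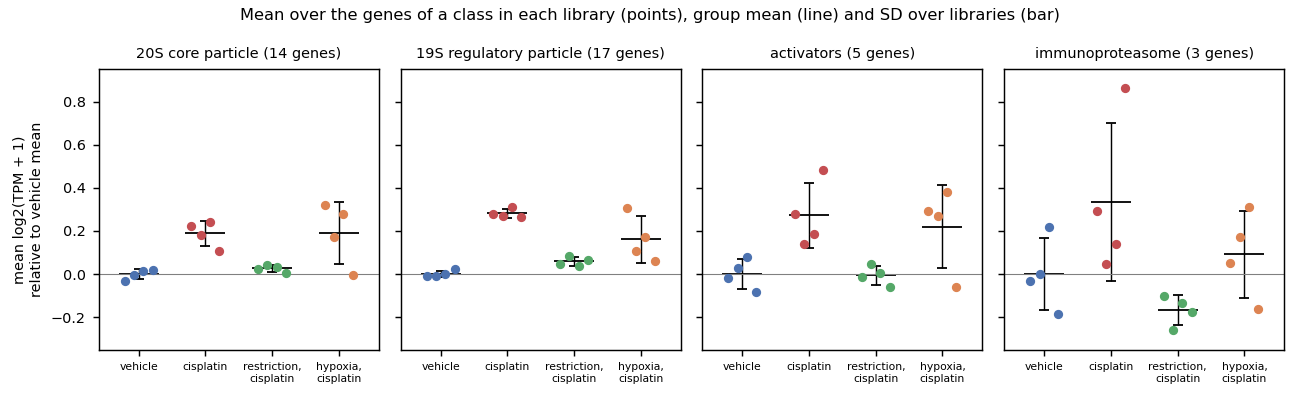
Mean log2(TPM + 1) over the genes of 4 classes in each library, relative to the vehicle mean (y axis), by group, with group mean (line) and SD over libraries (bar), n = 4. Restricted libraries lie near 0 for the 20S core and 19S particle, and hypoxia libraries spread from the vehicle level to that of BL_cisplatin or above.

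With hypoxia before cisplatin the libraries of the group disagreed, and few members passed. The median coefficient of variation over the 48 members was 12.2% in HP_cisplatin, against 3.54% in vehicle, 5.22% in BL_cisplatin and 3.56% in CR_cisplatin. Over the 31 subunits the mean log2(TPM + 1) relative to vehicle was 0.313, 0.135, 0.219 and 0.032 in HP_cisplatin 1 to 4. Of the 29 members called in cisplatin against vehicle, HP_cisplatin 1 was at or past the nearest BL_cisplatin library in 26, HP_cisplatin 2 in 9, HP_cisplatin 3 in 14 and HP_cisplatin 4 in 2. HP_cisplatin 4 was at or below the nearest vehicle library in 18 of them. These positions were not counted over all genes called, so whether they are particular to the members was not tested. Proximal tubule markers spread too, as given above, from 309.7 to 3038 summed TPM.

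Against cisplatin alone 3 members were higher with hypoxia, where 16.4% of all genes tested were, and 5 were lower, where 13.1% were. The lower share of the members, 10.4%, was thus below that of all genes. The higher ones were Psmg1 (log2 fold change of 0.39 ± 0.091 SE, adjusted p = 0.00942), Psme4 (log2 fold change of 0.32 ± 0.070 SE, adjusted p = 0.00795) and Psma4 (log2 fold change of 0.30 ± 0.063 SE, adjusted p = 0.00706), none of which overlapped with BL_cisplatin (35.8% of all genes called higher did not). The lower ones were all 19S subunits or activators: Psmd11 (-0.43), Psmd2 (-0.32), Psmd7 (-0.27), Psmd4 (-0.27) and Psme3 (-0.20), and of these only Psmd2 had no overlap between groups. Its HP_cisplatin libraries had 47.8, 36.2, 40.7 and 38.1 TPM and its BL_cisplatin libraries 51.2, 51.3, 53.02 and 48.2 TPM. Among called genes of either direction the groups did not overlap in 4 of 8 members (50.0%) and in 44.9% of all genes called. Over all 48 members 8.33% did not overlap, and 15.5% of all genes tested. The count of lower members was 12 without HP_cisplatin 1, 3 without HP_cisplatin 3, and 1 without HP_cisplatin 2 or 4 or any of BL_cisplatin 1 to 3, and 2 to 4 without any other library. The share of all genes moved as well: without HP_cisplatin 1 it was 23.3% beside 25.0% of members, without HP_cisplatin 2 5.97% beside 2.08%, and without HP_cisplatin 4 6.99% beside 2.08%. Psmd2 was called lower without each library in turn. On the rescaled values 3 members were higher and 13 lower, beside 12.7% and 26.8% of all genes. A fit of these 8 libraries alone called 0 in either direction (3 higher and 2 lower at an unadjusted p under 0.05), as did the prefix term (0 and 2). Both fits called 0 of all 15014 genes, so these zeros are not about the members.

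The 20S and 19S classes were also averaged in each hypoxia library. The constitutive 20S subunits averaged 0.32, 0.172, 0.279 and -0.004 in HP_cisplatin 1 to 4, against 0.109 to 0.244 in BL_cisplatin. The 19S subunits averaged 0.308, 0.105, 0.17 and 0.061, against 0.266 to 0.312. HP_cisplatin 1 and 3 were thus above all BL_cisplatin libraries for the 20S core, while HP_cisplatin 3 was below all of them for the 19S particle. The difference between the classes was not tested. Against cisplatin alone the median log2 fold change was -0.00235 over the 14 subunits of the 20S core and -0.111 over the 17 of the 19S particle. Within the 20S core Psma5 (-0.14), Psma7 (-0.13) and Psmb3 (-0.13) were lowest and Psma4 highest, and only Psma4 passed. Psmb5, next highest, was at 0.17 (adjusted p = 0.225), and without HP_cisplatin 4 at 0.299 (adjusted p = 0.0109).

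Against vehicle, in libraries that all share 1 title prefix, 11 members (22.9%) were higher with hypoxia, where 19.2% of all genes tested were. The higher share was thus close to that of all genes. No member was lower, where 10.1% of all genes were. At an unadjusted p under 0.05 limma had 19 higher and 0 lower. With voom 20 members were called higher and 0 lower, beside 24.6% and 9.25% of all genes. The largest were Psmd10 (log2 fold change of 1.00 ± 0.20 SE, adjusted p = 0.00961), Psmd11 (log2 fold change of 0.79 ± 0.15 SE, adjusted p = 0.00956), Psmg4 (log2 fold change of 0.56 ± 0.11 SE, adjusted p = 0.00899), Psmd8 (0.50) and Psmb5 (log2 fold change of 0.48 ± 0.11 SE, adjusted p = 0.0120). The rest were Psma6, Psma7, Psmd7, Psmc1, Psma3 and Psme3, from 0.31 for Psma6 to 0.20 for Psme3. In 7 of the 11 (63.6%) the groups did not overlap, and in 35.9% of all genes called higher. Over all 48 members 20.8% did not overlap, and 15.2% of all genes tested. Without HP_cisplatin 4 there were 24 higher (50.0%, beside 33.5% of all genes) and 1 lower (Psmd6, -0.172, adjusted p = 0.0105, beside 17.9% of all genes). Without HP_cisplatin 1 there were 6 higher (12.5%, beside 8.62%), and without HP_cisplatin 3 there were 4 (8.33%, beside 3.06%). Leaving out 1 vehicle library gave 6 or 7 and leaving out any other library 8 or 11, and a fit of the 8 libraries alone called 0 (9 higher and 0 lower at an unadjusted p under 0.05), beside 7 higher and 4 lower of all genes.

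Genes that work with the proteasome but fall outside the name rule were read from lists made for this purpose. Of 11 partners, which include assembly, deubiquitinating and shuttling factors, 7 were higher after cisplatin and 0 lower, where 38.0% and 28.8% of all genes were. Their median log2 fold change was 0.235. The 4 with the smallest adjusted p were Zfand2a and Zfand5, zinc finger proteins that bind the 19S particle, the deubiquitinase Usp14, and Txnl1. Zfand2a measured 4.87 ± 0.298 TPM in vehicle, 18.8 ± 2.77 in BL_cisplatin, 4.35 ± 0.32 in CR_cisplatin and 8.8 ± 4.03 in HP_cisplatin (SD, n = 4), a log2 fold change of 1.75 against vehicle (adjusted p = 5.02e-05). Zfand5 was at 0.73, Usp14 at 0.46 and Txnl1 at 0.26. The core maturation factor Pomp rose by 0.18 (adjusted p = 0.00984). With restriction 0 partners were higher and 6 lower than with cisplatin alone, where 29.8% and 37.4% of all genes were. With hypoxia 0 were higher and 3 lower, where 16.4% and 13.1% of all genes were.

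Of 7 genes of the route that controls proteasome genes through NRF1, 5 were higher after cisplatin and 2 lower, where 38.0% and 28.8% of all genes were, so the lower share was that of all genes. Nfe2l1 itself measured 33.6 ± 4.03 TPM in vehicle and 39.4 ± 1.23 in BL_cisplatin (SD, n = 4), a log2 fold change of 0.23 (adjusted p = 0.0184). Its relative Nfe2l2, which encodes NRF2, was at 22.6 ± 1.98 and 58.0 ± 3.76 TPM, a log2 fold change of 1.32. The small Maf partners of both rose, Maff by 3.49, Mafk by 1.72 and Mafg by 0.74. The 2 lower genes encode the enzymes that release active NRF1: the protease Ddi2 fell by 0.59 on the log2 scale (adjusted p = 0.00304) and the glycanase Ngly1 by 0.45 (adjusted p = 0.000137). In CR_cisplatin all 7 passed against cisplatin alone, 5 lower and 2 higher, where 37.4% and 29.8% of all genes were. The higher share was thus close to that of all genes. Against vehicle 0 of 7 passed, where 0.0133% of all genes were higher and 0.04% lower. Nfe2l1, Ddi2, Ngly1 and Pomp were named after their values had been seen.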

How the data were processed

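RNA of 16 kidney libraries was measured by sequencing. The deposited table holds TPM made by the authors for 46078 genes, and each library sums to 1000000. Per the submitters' processing notes, STAR 2.5, featureCounts and Subread 1.5 were used with mm10, and settings and strand are not given in the sources used here. Genes at 1 TPM or more in at least 4 libraries (15014) were tested on log2(TPM + 1) with limma 3.58.1 (R 4.3.3, statmod 1.5.0), with group as the only term, all 16 libraries, trended and robust variance, Benjamini-Hochberg adjustment over all genes and a threshold of 0.05. The scale understates changes of low genes. The fit was tested on simulated data. Ratios of switch pairs were compared by an exact permutation test.

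Multiplying TPM by exon length (GENCODE M21 for 76.3% of 32198 genes with reads, otherwise the smallest length that gave whole numbers, tolerance 0.0001) recovered whole reads for all of them, so totals are lower bounds. voom was run on these reads as an alternative. Other alternatives were a pseudocount of 0.1, no filter, rescaling without transcripts of mitochondria and red blood cells and the 10 most abundant genes, the compared groups alone, the title prefix as a term, and leaving out each library.

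Groups follow the labels, and library numbers follow deposit order. Per-library values are given for the catalytic and immunoproteasome subunits, for the member of each class with the highest and lowest change after cisplatin, and for members called against their class. In other gene lists the 4 genes of smallest adjusted p are named, except for some that are not reported here. The members and lists were chosen with earlier results of these data known.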

Additional observations from a re-analysis of the deposited data

Results flagged for a closer look

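In 5 of 192 sets of 4 libraries (48 members in 4 groups) 1 library lay far from the other 3 by Dixon's test of the gap over the range. Chance alone gives about 1 in 20 such sets. Psmb10 was lowest in HP_cisplatin 4 at 6.628 TPM, with the next library at 10.16 TPM. Psmd11 was highest in BL_vehicle 1 at 8.825 TPM, next to 7.899 TPM. Psmd14 was highest in BL_vehicle 4 at 14.81 TPM, next to 13.48 TPM. Psmf1 was highest in BL_vehicle 3 at 4.515 TPM, next to 4.051 TPM. Psmd6 was lowest in CR_cisplatin 2 at 25.18 TPM, next to 25.71 TPM, a gap of little size in a group with a narrow range.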

How the results depend on the processing

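No fitted change of a member that passed in any comparison turned direction under the alternatives run. With the title prefix as a term 6 members were higher and 0 lower for cisplatin against vehicle, beside 12.8% and 9.88% of all genes. For restriction against cisplatin 12 were lower, beside 23.6% of all genes. For hypoxia against cisplatin 0 were higher and 0 lower, as for all genes. In fits of the compared groups alone hypoxia had 0 higher and 0 lower against cisplatin and 0 higher against vehicle. Of all genes these fits called 0 against cisplatin, and 7 higher and 4 lower against vehicle. With no filter hypoxia had 1 lower against cisplatin and 7 higher against vehicle, beside 2163 and 1921 of 32198 genes. Rescaling without the most abundant genes gave 13 lower for hypoxia against cisplatin, beside 26.8% of all genes. With voom 20 were higher for hypoxia against vehicle, beside 24.6% of all genes. The cause was not tested. Leaving out 1 library gave 1 to 12 members lower for hypoxia against cisplatin, beside 897 to 3498 of 15014 genes. Against vehicle it gave 4 to 24 members higher and 0 to 1 lower, beside 460 to 5024 and 232 to 2685 genes. For Psmb8 over Psmb5 after cisplatin the difference ran from -0.188 to 0.18, and was -0.022 with TPM + 1. For Psmb9 over Psmb6 it ran from -0.315 to 0.137 after cisplatin, above 0 at 0.024, 0.067 and 0.137, and from -0.38 to 0.072 for hypoxia against cisplatin. Rescaling moved the median log2 fold change of all genes from -0.0174 to -0.136 for hypoxia against cisplatin. Psmb9 and Psme2b rest on few reads, so small changes in them could not be seen at this depth. No paired analysis was possible because the labels give the libraries no replicate numbers.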

Other observations

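Of 14 genes that encode ubiquitin or carry it to the proteasome 5 were higher after cisplatin and 1 lower. Of all genes tested 38.0% were higher and 28.8% lower, so the higher share of the list was close to that of all genes. Its median log2 fold change was 0.124, beside 0.0845 for all genes tested. The shuttle factor Ubqln2 rose by 0.92 and Rps27a, which encodes ubiquitin fused to a ribosomal protein, by 0.90 on the log2 scale. With restriction, 4 of the 14 were higher and 4 lower than with cisplatin alone, where 29.8% and 37.4% of all genes were. The higher share was thus close to that of all genes. With hypoxia 1 was higher and 2 lower, where 16.4% and 13.1% were, so the lower share was close to that of all genes. Against vehicle, 0 of 14 passed with restriction, where 0.0133% of all genes were higher and 0.04% lower. With hypoxia 3 were higher and 1 lower than in vehicle, where 19.2% and 10.1% of all genes were.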
